A study of Mus musculus with 23 samples.

Results

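The 4 hemoglobin genes of adult mouse red cells were Hba-a1 (gene ID 15122) and Hba-a2 (110257), which encode alpha globin, and Hbb-bs (100503605) and Hbb-bt (101488143), which encode beta globin. They were found by their symbols among the 17644 genes of the TPM table and matched to the count table by gene ID, and all 4 passed the filter on low counts. RNA-Seq had been done on marrow-depleted femur and tibia of 23 female C57BL6/N mice at 11 weeks of age, 1 library per mouse. There were 5 nondiabetic WT mice, called WT Control, and 6 mice in each of the groups called WT T1D, KO Control, and KO T1D. T1D mice had received streptozotocin, which destroys the beta cells of the pancreas, by injection at 100 mg/kg after an overnight fast, on consecutive days and again if glucose had not risen enough, and had been diabetic for 3 weeks. Control mice had received saline. KO mice were labelled as lacking Sarm1, an NAD-cleaving enzyme of axon degeneration, in the whole body rather than in 1 cell type, and the WT mice were littermates or had been bought.

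Hemoglobin is a tetramer of alpha and beta globin chains, each of which holds a heme group. Erythroblasts, the nucleated precursors of red cells, make it in bone marrow, and their globin genes are switched on by GATA1, KLF1, and TAL1. Mature red cells have lost their nucleus, and the young ones, reticulocytes, still hold globin RNA. Marrow had been spun out of these bones before RNA was extracted, so the libraries hold RNA of the cells that stayed in the bone. In bulk RNA, fewer cells of a type and less RNA per cell cannot be told apart.

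Each pair of genes lies in a cluster, shown here in GRCm38. Hba-a1 lies at chr11:32283672-32284486 and Hba-a2 at chr11:32296492-32297310, both on the + strand. Hbb-bs lies at chr7:103826523-103827928 and Hbb-bt at chr7:103812524-103813923, both on the − strand. Each gene has 3 exons. Sarm1 is also on chromosome 11, 46.2 megabases from Hba-a2.

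The genes of a pair are so alike that many short reads cannot be assigned to 1 of them. The coding sequences of Hba-a1 and Hba-a2 are 429 bases each and differed at 1 base, C381T, counted from the first coding base, with the base of Hba-a1 given first. Those of Hbb-bs and Hbb-bt are 444 bases each and also differed at 1 base, C417T, with the base of Hbb-bs first. Both differences are in exon 3. The 41 bases around each difference are shown because a read pair must cover such a position, or an untranslated end, to tell the genes apart. The differing base is in capitals.
Hba-a1: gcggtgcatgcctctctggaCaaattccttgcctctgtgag
Hba-a2: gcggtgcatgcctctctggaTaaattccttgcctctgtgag
Hbb-bs: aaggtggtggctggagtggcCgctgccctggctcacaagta
Hbb-bt: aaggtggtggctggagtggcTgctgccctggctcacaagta

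These stretches lie at chr11:32284323-32284363, chr11:32297140-32297180, chr7:103826672-103826712, and chr7:103812663-103812703 of GRCm38 in the order shown. Of all 100-base windows of the annotated transcripts, the length of a read, 56.5% of those of Hba-a1 also occurred in Hba-a2, and 74.5% of those of Hba-a2 occurred in Hba-a1. For the beta pair, 62.6% of the windows of Hbb-bs occurred in Hbb-bt and 54.8% the other way. These values are for single reads. The reads came in pairs, so fewer pairs than that need be ambiguous. RSEM, the program that made the counts, divides such reads between genes by estimate. How much of a pair went to each gene is therefore less certain than the sum of the pair.

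The promoters were more alike within the alpha pair than within the beta pair. In RefSeq sequences of GRCm38.p6, windows that span the start of each gene were laid side by side at a single best shift, without gaps. Those of Hba-a1 and Hba-a2 were identical over all 297 bases that could be compared. Those of Hbb-bs and Hbb-bt were identical at 56.2% of 299 bases. An inserted or missing base puts all later bases out of step, so the beta value can understate how alike the sequences are. The 200 bases before the start of 3 genes are shown because all 4 genes had higher means in WT T1D mice. Each is printed 5′ to 3′ on the strand of its gene, and capitals mark short motifs on either strand. One is GATAA, the core that GATA factors bind. Another is CACCC, the core that KLF1 and its relatives bind. The CCAAT box and a TATA box, searched as the letters ATATAA, are also marked, and a CCAAT box on the opposite strand reads ATTGG.
Hba-a1: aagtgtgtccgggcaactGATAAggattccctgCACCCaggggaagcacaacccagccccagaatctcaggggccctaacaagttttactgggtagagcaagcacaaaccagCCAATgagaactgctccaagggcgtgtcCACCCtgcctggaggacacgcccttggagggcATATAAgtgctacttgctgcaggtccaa
Hbb-bs: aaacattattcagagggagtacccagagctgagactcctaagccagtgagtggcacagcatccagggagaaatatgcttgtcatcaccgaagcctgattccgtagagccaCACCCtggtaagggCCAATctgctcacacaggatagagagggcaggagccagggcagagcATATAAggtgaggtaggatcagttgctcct
Hbb-bt: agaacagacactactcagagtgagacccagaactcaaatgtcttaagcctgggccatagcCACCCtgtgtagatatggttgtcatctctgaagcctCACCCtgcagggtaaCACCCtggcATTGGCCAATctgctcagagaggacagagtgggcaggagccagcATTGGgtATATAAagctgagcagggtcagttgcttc

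They lie at chr11:32283472-32283671, chr7:103827929-103828128, and chr7:103813924-103814123. Each of the 4 genes had the KLF1 core, the CCAAT box, and the TATA box, whose first base was 28 to 31 bases before the start. Of these genes, Hba-a1 and Hba-a2 had the GATA core. In windows of the same length before 32851 genes, the GATA core occurred in 18.1%, the KLF1 core in 45.5%, the CCAAT box in 29.3%, and the TATA box in 7.30%, with both strands searched. All of these motifs together occurred in 72 of those windows, or 0.219%. A match to letters does not show that a factor binds there.

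Depth was similar in all libraries, from 16938101 to 20135592 counts per mouse. The labelled tissue had bone markers in 21 mice, in which the summed TPM of 12 osteoblast and osteocyte markers ranged from 36996 to 83231. WT T1D mice A3905 and A3906 stood apart with 2042 and 1700, and their Col1a1, the main chain of bone collagen, was 528 and 403 TPM against 6612 to 15803 in the other mice. The values of the hemoglobin genes in WT mice are therefore also given without both mice. IDs starting with A17 belonged to A1757 of the WT Control group and to 3 mice of the WT T1D group, and all KO mice were among those with IDs from A36 to A39. Every KO mouse except A3766 had an ID starting with A36, and no WT mouse did. Among T1D mice, genotype and ID series therefore cannot be told apart, with or without the A17 mice. Sarm1 RNA was close to 0 in all groups, at 0.280 to 0.620 TPM in WT Control, 0.0800 to 0.310 in WT T1D, 0.0800 to 0.450 in KO Control, and 0.250 to 0.470 in KO T1D. It did not separate the libraries labelled KO from WT, and genotypes are given as labelled. The paper reports that qPCR found less Sarm1 RNA in KO bone than in WT bone, where it was already low.

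Hemoglobin genes were among the most abundant in the table. By mean counts over all mice, Hba-a1 was gene number 1, Hba-a2 number 3, Hbb-bs number 4, and Hbb-bt number 10. Together they held from 8.01% to 21.4% of all gene counts in a mouse. In TPM, which accounts for gene length, the order Hba-a1, Hba-a2, Hbb-bs, Hbb-bt was seen in each of the 23 mice. The ranges of Hba-a2 and Hbb-bs overlapped in WT T1D and KO Control and did not overlap in WT Control or KO T1D.

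The share of counts held by all 4 genes shows the pattern of the groups. In WT Control mice it was 9.73% in A3907, 9.76% in A3903, 10.2% in A3904, 10.3% in A3767, and 13.9% in A1757. In WT T1D it was lowest in A3909, at 12.3%, had a median of 15.7%, and was highest in A3905, at 21.4%, with 21.0% in A3906. In 5 of 6 diabetic WT mice the share was above that of every nondiabetic WT mouse. KO Control mice ranged from 8.01% to 15.8% with a median of 11.1%, and KO T1D mice from 10.5% to 14.0% with a median of 11.7%, so that the KO groups overlapped throughout. The mean was 16.7% ± 3.70 (SD, n = 6) for the WT T1D group against 10.8% ± 1.75 (n = 5) for its controls, and 11.9% ± 1.32 (n = 6) for the KO T1D group against 11.5% ± 2.74 (n = 6) for its controls.

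**Figure D1:**
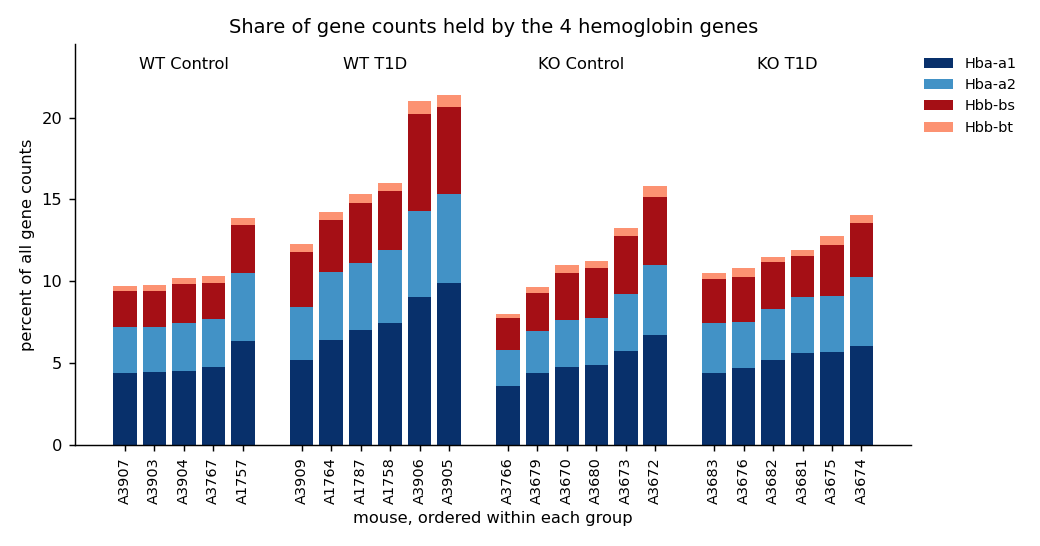
Percent of all gene counts held by Hba-a1, Hba-a2, Hbb-bs, and Hbb-bt, stacked, with 1 bar per mouse, ordered within each group. The tallest bars are WT T1D mice A3905 (21.4%) and A3906 (21.0%), and the KO Control and KO T1D bars span 8.01% to 15.8% and 10.5% to 14.0%.

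Hba-a1, the most abundant alpha globin gene, was at 133132, 134536, 136619, 144958, and 175149 TPM in the 5 WT Control mice. The lowest WT T1D value was 147552, the median 190257, and the highest 225905. Of these mice, 5 of 6 were above all Control mice, and A3909 was below A1757. The KO Control mice ranged from 109693 to 174287 with a median of 141367, and the KO T1D mice from 127231 to 170087 with a median of 151695, inside the KO Control range. Mean TPM was 190179 ± 27233 (SD, n = 6) for WT T1D mice against 144879 ± 17532 (n = 5) for their controls, and 149619 ± 16029 (n = 6) for KO T1D mice against 142026 ± 22432 (n = 6) for theirs.

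Hba-a2, its near-identical partner, was at 83724, 84164, 86090, 86925, and 113449 TPM in WT Control. The WT T1D mice ranged from 90050 to 124514 with a median of 114705. Of these, 3 of 6 were above all Control mice, of which A1757 was by far the highest. KO Control mice ranged from 65494 to 110205 (median 83841) and KO T1D mice from 80924 to 116443 (median 91247), and 1 KO T1D mouse was above all KO Control mice.

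Hbb-bs, the major beta globin gene, was at 56875, 57647, 58074, 61159, and 68230 TPM in WT Control. The WT T1D range was 76132 to 117566 with a median of 82488. For this gene the WT groups did not overlap in TPM, in CPM, or as a share of counts. How many genes of the whole table had WT groups this far apart was not counted. The KO Control mice ranged from 51346 to 93495 with a median of 74528, and the KO T1D mice, from 60288 to 79334 with a median of 69702, lay inside that range.

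Hbb-bt, the minor beta globin gene, was the least abundant of the 4, at 8506, 9351, 10435, 11050, and 11695 TPM in WT Control. WT T1D mice ranged from 10980 to 17092 with a median of 12564, and 4 of 6 were above all Control mice in TPM. As a share of counts 5 of 6 were, and in CPM 6 of 6, there by a narrow margin (lowest T1D value 4586, highest Control value 4580). In KO Control it ranged from 7238 to 14313 (median 11398) and in KO T1D from 6690 to 13497 (median 11239). The lowest KO T1D value, in A3682, was below all KO Control mice.

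**Figure D2:**
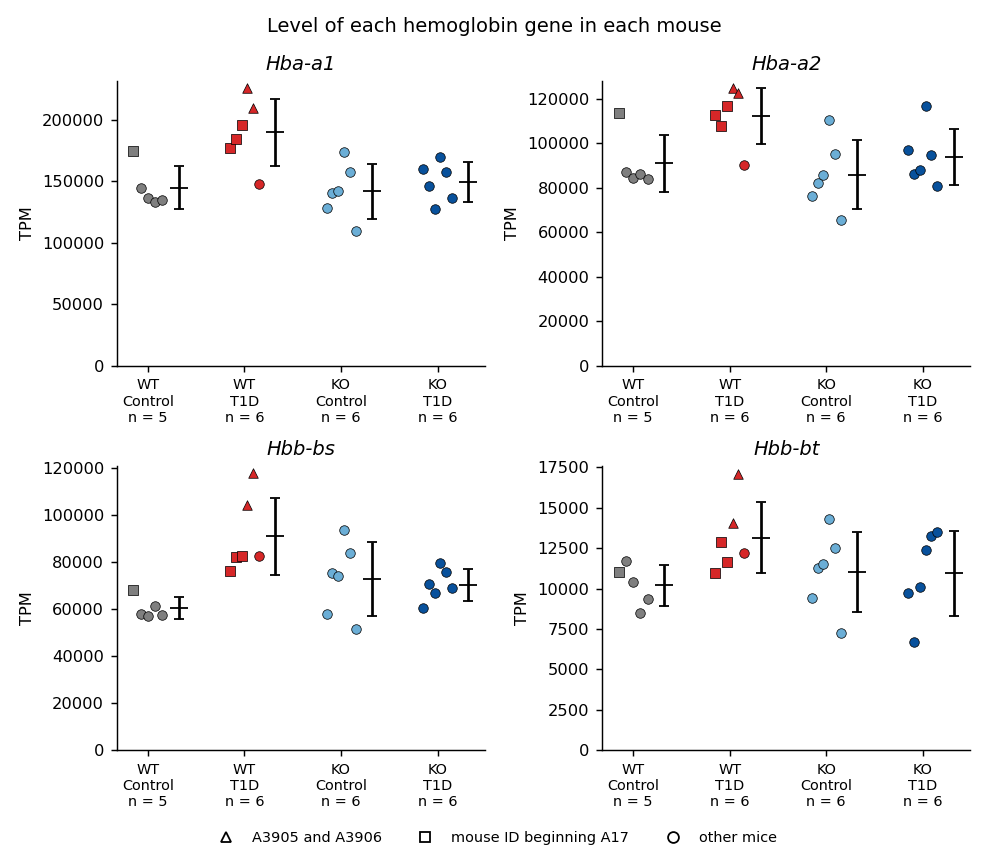
TPM of each hemoglobin gene in each mouse by group, with the group mean and SD beside the points; triangles are WT T1D mice A3905 and A3906 and squares are mice of the A17 series. The WT T1D points of Hbb-bs, from 76132 to 117566 TPM, are all above the WT Control points, from 56875 to 68230 TPM, and the KO groups overlap for each gene.

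The first comparison asked which genes differ between diabetic and nondiabetic WT bone. In WT mice, Hbb-bs and Hba-a1 rose with T1D. Counts were normalized with TMM and fitted in edgeR over all 23 mice and 14364 genes, with Benjamini-Hochberg adjusted p values under 0.05 as the threshold. Hbb-bs rose 1.86-fold with T1D in WT mice (log2 fold change 0.89, SE 0.20, edgeR adjusted p = 0.0367). Hba-a1 was 1.62-fold higher (0.69, SE 0.19), with an adjusted p of 0.0499 that only just passed. Hba-a2 and Hbb-bt had fold changes close to that of Hba-a1, 1.51 (log2 0.60, SE 0.19) and 1.59 (0.67, SE 0.21), and did not pass (adjusted p = 0.0707 and 0.0726). Thus 2 of the 4 genes were called, against 2.33% of all genes, or 1.5% for genes called higher and 0.828% for genes called lower. The median log2 fold change of the 4 was 0.68 and that of all genes tested was -0.011. By unadjusted p, Hbb-bs was number 57 of 14364 genes and Hbb-bt number 798.

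Both WT calls were lost without A3905 and A3906. Without these mice together, the log2 fold changes were 0.60 (SE 0.17) for Hbb-bs, 0.46 (SE 0.17) for Hba-a1, 0.41 (SE 0.18) for Hba-a2, and 0.41 (SE 0.20) for Hbb-bt. All 4 kept their direction and none was called (edgeR adjusted p from 0.288 to 0.467). In that fit 0 genes of the whole table were called, and 1575 had an unadjusted p under 0.05, among them the hemoglobin genes other than Hbb-bt. Each of the 4 remaining WT T1D mice was still above all WT Control mice for Hbb-bs, and their share of counts for all 4 genes was 12.3% to 16.0%. How many genes of the whole table kept these mice as far apart was not counted. With 1 mouse of any group left out at a time, Hbb-bs was called in 15 of 23 fits and Hba-a1 in 4, with adjusted p values of up to 0.112 and 0.134 (edgeR). In the same fits the number of all genes called ranged from 0, without A3767 or A3907, to 1264, without A3909. With all 23 mice, DESeq2 called all 4 hemoglobin genes and 6.98% of all genes, with adjusted p values of 5.01e-04 for Hbb-bs, 0.00500 for Hba-a1, 0.0160 for Hba-a2, and 0.0202 for Hbb-bt.

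The series of mouse IDs also moved the result. In the A17 mice, the Control mouse A1757 had 13.9% of counts in hemoglobin genes and the 3 T1D mice had 14.2%, 15.3%, and 16.0%. For Hbb-bs these mice were at 68230 TPM in Control and 76132, 82208, and 82585 in T1D, and for Hba-a2 at 113449 in Control and 112639, 107732, and 116772 in T1D. With 1 Control mouse, this series gave no test. Among the A36 to A39 mice, WT Control shares were 9.73% to 10.3% and the T1D shares were 12.3%, 21.0%, and 21.4%. There the log2 fold changes were 1.22 for Hbb-bs, 0.93 for Hba-a1, 0.82 for Hba-a2, and 0.96 for Hbb-bt, and all 4 were called (edgeR adjusted p from 0.00960 to 0.0267), against 15.4% of all genes in that fit. This subset of WT T1D mice consists of A3905, A3906, and A3909.

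In KO mice no hemoglobin gene changed detectably with T1D. The log2 fold changes were 0.12 (SE 0.18) for Hba-a1, 0.17 (SE 0.18) for Hba-a2, -0.012 (SE 0.19) for Hbb-bs, and 0.018 (SE 0.20) for Hbb-bt. None of the 4 was called, and the share called among all genes was 0% (edgeR, lowest adjusted p 0.797). At an unadjusted p under 0.05 there were 452 genes, none of them a hemoglobin gene, and DESeq2 also called 0 genes. The sign of Hbb-bt was negative under 4 other ways of processing, and those of Hbb-bs and Hbb-bt changed with single KO mice left out.

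The difference between these responses was tested as the interaction of genotype and diabetes. The T1D change was lower in KO than in WT by 0.58 (SE 0.26) on the log2 scale for Hba-a1, 0.43 (SE 0.25) for Hba-a2, 0.91 (SE 0.27) for Hbb-bs, and 0.65 (SE 0.29) for Hbb-bt. No hemoglobin gene passed after adjustment (edgeR adjusted p = 0.479 for Hba-a1, Hbb-bs, and Hbb-bt and 0.549 for Hba-a2), and again 0% of all genes did. Unadjusted, the genes other than Hba-a2 had p under 0.05, as did 1467 of all genes. DESeq2 gave an adjusted p of 0.197 for Hbb-bs and called 0 genes. Without A3905 and A3906, the differences were smaller, at 0.35, 0.25, 0.61, and 0.39 in the same order. A change past the threshold in WT and none in KO was thus not shown to differ between the genotypes after adjustment.

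**Figure D3:**
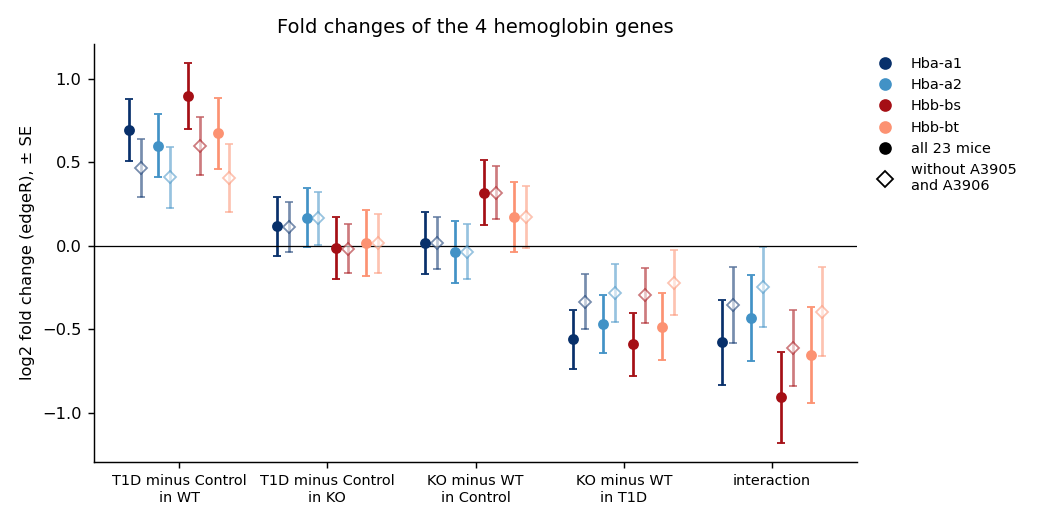
Log2 fold change ± SE of each hemoglobin gene in the 4 comparisons and the interaction, from edgeR, with all 23 mice (filled circles) and without WT T1D mice A3905 and A3906 (open diamonds). With all mice, the WT T1D values are 0.60 to 0.89 and the KO T1D values are -0.012 to 0.17.

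The genotypes were then compared at each disease state. In nondiabetic mice, the log2 difference of KO from WT was 0.017 (SE 0.18) for Hba-a1, -0.037 (SE 0.18) for Hba-a2, 0.32 (SE 0.20) for Hbb-bs, and 0.17 (SE 0.21) for Hbb-bt. None was called, as against 0.0278% of all genes, 0.0209% higher and 0.00696% lower (edgeR adjusted p of at least 0.999). The signs of Hba-a1, Hba-a2, and Hbb-bt changed under some of the alternatives. For Hbb-bs, 4 of 6 KO Control mice were above all WT Control mice in TPM and 2 of 6 in CPM, and 1 was below all of them on both scales.

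In diabetic mice, hemoglobin genes of the KO group were fitted at 0.665 to 0.723 of the WT level, and none of the 4 passed. This comparison uses the same WT T1D mice as that of T1D in WT. The log2 differences were -0.56 (SE 0.18, edgeR adjusted p = 0.156) for Hba-a1, -0.47 (SE 0.18, 0.206) for Hba-a2, -0.59 (SE 0.19, 0.157) for Hbb-bs, and -0.48 (SE 0.20, 0.232) for Hbb-bt. Of all genes, 0.0905% were called, 0.0627% higher and 0.0278% lower. All 4 had an unadjusted p under 0.05, as did 2454 of all genes. DESeq2 called Hba-a1 (adjusted p = 0.0345) and Hbb-bs (0.0404), against 1.66% of all genes. Among the A36 to A39 mice, Hba-a1 (-0.68, edgeR adjusted p = 0.0476) and Hbb-bs (-0.83, 0.0253) were called, against 10.7% of all genes. There all KO T1D mice had A36 IDs and all WT T1D mice A39 IDs, so genotype and ID series cannot be told apart. For Hbb-bs, 5 of 6 KO T1D mice were below all WT T1D mice in TPM and in CPM. For Hba-a2 and Hbb-bt, 3 of 6 were on both scales, and for Hba-a1 3 of 6 in TPM and 2 of 6 in CPM. Without A3905 and A3906 the differences were -0.33, -0.28, -0.29, and -0.22 in the same order, with unadjusted p values from 0.0535 to 0.268.

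The balance of alpha and beta globin RNA was compared because both chains are needed in equal number for the tetramer. The log2 ratio of the summed TPM of the alpha genes to that of the beta genes was 1.65, 1.70, 1.71, 1.73, and 1.86 in WT Control. In KO Control it ranged from 1.36 to 1.60, with a median of 1.41, and all 6 KO Control mice were below all 5 WT Control mice. The ratio itself had a mean of 2.75 ± 0.205 (SD, n = 6) for KO Control mice against 3.33 ± 0.185 (n = 5) for WT Control mice. The difference of -0.27 on the log2 scale had p = 0.00433 in a two-sided exact permutation test and 0.0649 after Benjamini-Hochberg adjustment over the 15 tests of this family. It did not pass. Groups of 5 and 6 mice allow only 462 splits, so few smaller p values were possible for this comparison. Among the A36 to A39 mice the difference was -0.24 (exact permutation p = 0.00952, adjusted 0.0714). The WT T1D mice ranged from 1.30 to 1.74 (median 1.59) and the KO T1D mice from 1.40 to 1.88 (median 1.54), and these groups overlapped (difference 0.035, exact permutation p = 0.732). For T1D, the ratio differed by -0.19 in WT (exact permutation p = 0.0823) and by 0.12 in KO (p = 0.156). The interaction was 0.31 (exact permutation p = 0.0276, adjusted 0.130) and did not pass. Among the A36 to A39 mice it was 0.43 (exact permutation p = 0.00329, adjusted 0.0493), which just passed, and without A3905 and A3906 it was 0.25 (exact permutation p = 0.0883, adjusted 0.317).

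Within the alpha pair, Hba-a1 held a steady part of the counts. Its share was 60.5%, 60.5%, 61.4%, 61.7%, and 62.3% in WT Control. Over WT T1D mice it was 61.0% to 64.3%, over KO Control 61.1% to 62.9%, and over KO T1D 58.9% to 62.7%. KO T1D mice A3683 and A3674, at 58.9% and 59.2%, were the lowest of all mice. The T1D difference was 1.29 percentage points in WT (exact permutation p = 0.0563) and -0.909 in KO (p = 0.316), and the interaction of -2.20 points had an exact permutation p of 0.0268, or 0.130 adjusted over the 15 tests.

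Hbb-bt held the smaller part of the beta pair. In WT Control its share was 12.0%, 13.7%, 13.8%, 15.3%, and 16.5%, and in WT T1D it was 11.7% to 13.4%. The mean was 12.5% ± 0.550 (SD, n = 6) with T1D against 14.3% ± 1.71 (n = 5) without, with an exact permutation p of 0.0346 that did not pass adjustment (0.130). KO Control mice were at 12.2% to 13.8% and KO T1D mice at 8.52% to 16.2%. A3682 had the lowest share of all mice, 8.52%, with Hbb-bt at 6690 TPM and Hbb-bs at 70692 TPM. Since both genes of a pair share most of their sequence, as the stretches above show, these shares rest on the part of the reads that tells the genes apart.

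**Figure D4:**
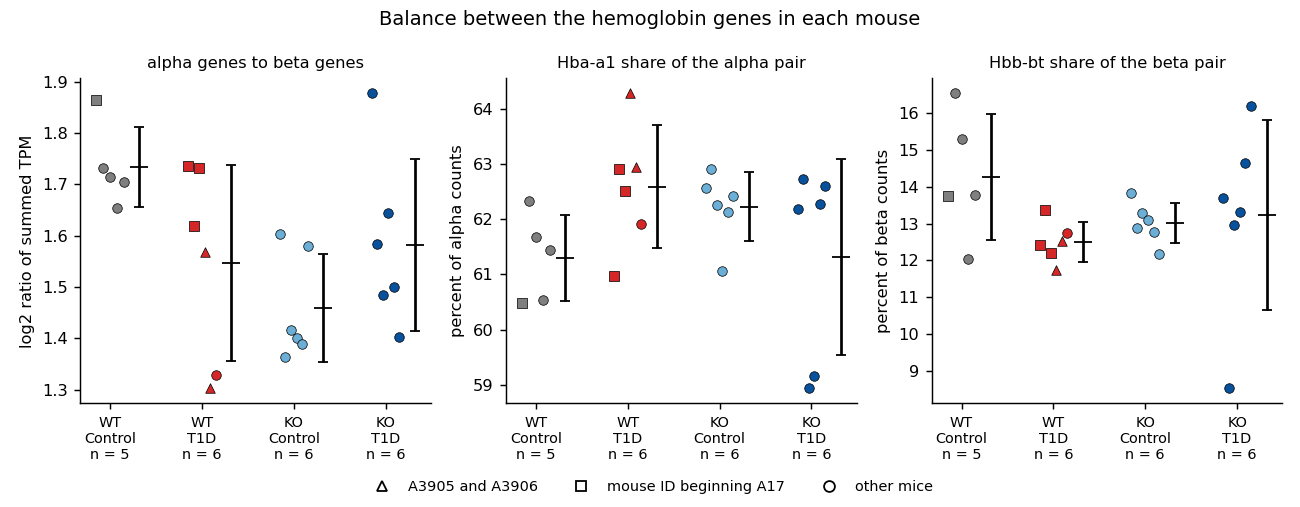
Log2 ratio of summed alpha to summed beta TPM, Hba-a1 share of the alpha counts, and Hbb-bt share of the beta counts in each mouse by group, with the group mean and SD beside the points; axes do not start at 0. The 6 KO Control ratios, from 1.36 to 1.60, are all below the 5 WT Control ratios, from 1.65 to 1.86, and KO T1D mouse A3682 has the lowest Hbb-bt share (8.52%).

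Other globin genes were far lower. The embryonic genes Hba-x, Hbb-y, Hbb-bh1, and Hbb-bh2 had mean TPM of 0.865, 0.352, 0.192, and 0.0348 over all mice. Hbb-b1 and Hbb-b2, the adult beta genes of another mouse haplotype, had means of 6.73 and 0.522 TPM, and reads of Hbb-bs or Hbb-bt could be counted there. Hbq1b and Hbq1a, the theta globin genes of the alpha cluster, had means of 59.2 and 5.02 TPM. Hbq1b was the 1 gene called among the 6 tested here, with a log2 fold change of 0.82 (SE 0.20, edgeR adjusted p = 0.0451) for T1D in WT and -0.079 (SE 0.19) in KO. Its WT Control mice were at 41.3 to 60.6 TPM and its WT T1D mice at 52.8 to 118. Hbb-b1 had 0.94 (SE 0.27, adjusted p = 0.0593), Hbq1a 0.69 (SE 0.35), and Hba-x 0.66 (SE 0.55) in WT. Globins of other tissues were myoglobin, Mb, which stores oxygen in muscle (mean 218 TPM, log2 fold change -0.38, SE 0.77), cytoglobin, Cygb (7.85 TPM, 0.16, SE 0.13), and neuroglobin, Ngb (0.0917 TPM, not tested).

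Genes that make heme were next compared. Of the 9 enzymes of heme synthesis, 3 were called higher with T1D in WT, against 1.5% of all genes. Their median log2 fold change was 0.51. Alas2, the first enzyme of the pathway in erythroid cells, had 0.69 (SE 0.19, edgeR adjusted p = 0.0514) and was not called. Fech, which inserts iron into the ring, rose by 0.68 (SE 0.17, 0.0451). Cpox, a later enzyme named after its values were seen, rose by 0.54 (SE 0.14, 0.0494). In KO, Alas2 had 0.0090 and Fech 0.025, and 0 of 9 were called, as were 0 of all genes.

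A list of 10 genes held regulators of globin genes and Epor, the erythropoietin receptor of the cell surface. Of these genes, 2 were called higher in WT, against 1.5% of all genes, with a median of 0.43. Nfe2, which acts at the globin locus control regions, rose by 0.52 (SE 0.11, edgeR adjusted p = 0.0331). The other was Epor, named after its values were seen (0.48, SE 0.12, 0.0451). Tal1 (0.57, SE 0.16, 0.0514) and Klf1 (0.56, SE 0.17, 0.0613) were not called. Of 20 genes of the red cell membrane and cytosol, 11 were called higher and none lower, against 1.5% and 0.828% of all genes. Their median was 0.53. Car1, a carbonic anhydrase, rose by 1.77 (SE 0.33, adjusted p = 0.0209), Rhag, of the Rh complex, by 0.94 (SE 0.20, 0.0367), and Epb41, which links spectrin to actin, by 0.65 (SE 0.16, 0.0447). Of 11 genes of iron supply, none was called, against 2.33% of all genes. Slc25a37, the mitochondrial iron importer, had 0.46 (SE 0.15), Tfrc, the transferrin receptor, 0.44 (SE 0.19), and Abcb10 0.43 (SE 0.13). In KO, 0 genes of these lists were called, as were 0 of all genes. The list medians in KO were 0.012 to 0.10. Car1 had 0.46 (SE 0.30) in KO, and Rhag and Epb41 had 0.032 and 0.12. The KO T1D mice had 386 to 523 TPM of Car1, all above the KO Control mice, at 211 to 369. Car1 was not called in KO, and how many genes had KO groups this far apart was not counted. The paper lists Car1 among genes that went up with T1D in both genotypes.

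Without A3905 and A3906 no gene of these lists was called in WT, and neither was any other, as that fit called 0 of all genes. The medians were 0.30 for heme synthesis, 0.29 for the regulators with Epor, 0.40 for the red cell membrane and cytosol, and 0.14 for iron supply. The mean log2 CPM of 9 erythroid markers, among them Slc4a1, Alas2, Klf1, Gata1, Epb42, Rhag, and Ermap, was 8.86 ± 0.288 (SD, n = 6) for WT T1D mice against 8.28 ± 0.214 (n = 5) for their controls, and 8.48 ± 0.0985 (n = 6) for KO T1D mice against 8.40 ± 0.320 (n = 6) for theirs. It was highest in A3906 (9.30) and A3905 (9.10). With this mean as a covariate, the T1D changes in WT were 0.084 (SE 0.15) for Hba-a1, 0.026 (SE 0.16) for Hba-a2, 0.19 (SE 0.15) for Hbb-bs, and -0.056 (SE 0.17) for Hbb-bt. All 9 markers were themselves higher with T1D in WT, and Alas2 was the gene that varied most closely with the hemoglobin genes. Smaller changes were therefore built into this fit. Whether erythroid content was the cause was not tested.

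Bone markers went the other way in WT mice. The 12 osteoblast and osteocyte markers had a median of -0.74. Of these, 2 were called lower with T1D in WT, against 0.828% of all genes, and none higher. These, named after their values were seen, were Ibsp, bone sialoprotein (-0.78, SE 0.15, edgeR adjusted p = 0.0236), and Runx2, the regulator of osteoblast formation (-0.66, SE 0.16, 0.0451). Phex, an osteocyte enzyme of phosphate control, had -0.99 (SE 0.32), Col1a1 -0.91 (SE 0.49), and Col1a2 -0.90 (SE 0.48), and none of these 3 was called. The summed TPM of the list was 36996 to 76199 (median 56752) in WT Control, 1700 to 49360 (median 39067) in WT T1D, 37510 to 83231 (median 47560) in KO Control, and 40006 to 63286 (median 49282) in KO T1D. None of the 12 was at 0 in all mice. Without A3905 and A3906 the median was -0.38, and 0 of 12 were called, as were 0 of all genes. The WT Control mouse with the least of these markers, A1757, was the one with the most hemoglobin. The part of the lower bone marker level in the hemoglobin result was not tested.

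**Figure D5:**
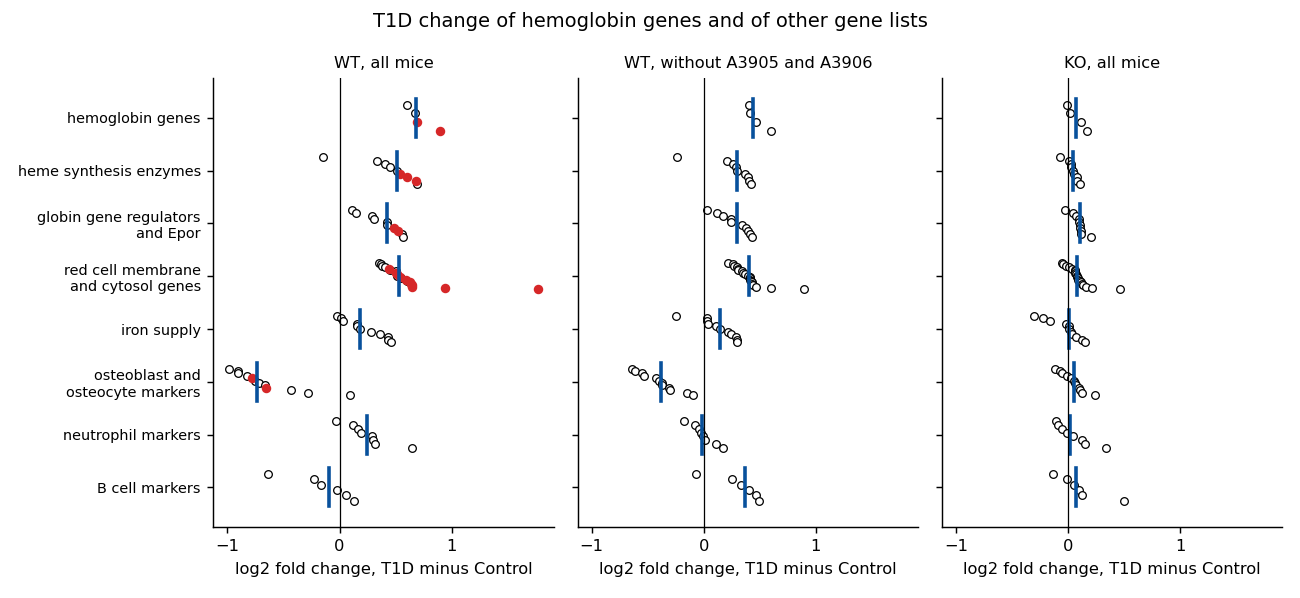
Log2 fold change of T1D against Control for each gene of 8 lists, in WT with all mice, in WT without A3905 and A3906, and in KO; red points had an edgeR adjusted p under 0.05 and blue bars are list medians. In WT the medians of the hemoglobin, heme synthesis, regulator with Epor, and red cell lists are 0.68, 0.51, 0.43, and 0.53, and no point is red in the other panels. The fits of those panels called 0 of all genes.

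The 4 genes also varied together from mouse to mouse. After each gene was centred on its group mean, Pearson's r of log2 CPM over the 23 mice was 0.97 for Hba-a1 and Hba-a2 and 0.82 for Hbb-bs and Hbb-bt. Between the pairs it was 0.89 for Hba-a1 with Hbb-bs and 0.74 for Hba-a2 with Hbb-bt. Libraries share depth and cell makeup, so these values describe the mice and carry no test.

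The 5 other genes closest to the mean of the 4 included enzymes that begin heme synthesis. They were Alas2 (r = 0.96 centred on groups, 0.97 over all 23 mice uncentred), Alad, the second enzyme (0.95 and 0.97), Fam220a (0.92 and 0.93), Tspan33, a tetraspanin (0.92 and 0.95), and Mkrn1, a ubiquitin ligase (0.91 and 0.94). Without A3905 and A3906, the centred values over 21 mice were 0.94, 0.94, 0.89, 0.88, and 0.90. Of these, Fam220a (0.58, SE 0.14, edgeR adjusted p = 0.0440) and Tspan33 (0.64, SE 0.17, 0.0494) were called higher with T1D in WT.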

How the data were processed

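Bone RNA of 23 mice was sequenced by the authors as paired-end 100-base reads of an oligo dT library (DNBSEQ), filtered with SOAPnuke, mapped to GRCm38.p6 by Bowtie2 and HISAT, and counted with RSEM. The authors deposited expected counts, rounded to whole numbers and not normalized. They also deposited TPM values from the sequencing provider. Read processing was not repeated. Groups came from the library labels. Each replicate is a separate mouse.

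Genes that reached 10 counts in 5 or more mice were fitted in edgeR 4.0.16 (R 4.3.3) with TMM, a model of the 4 groups, and the quasi-likelihood test, with Benjamini-Hochberg adjustment over 14364 genes. In simulated data, 76% of 200 genes with a log2 change of 1 were called for T1D in WT and 68% for the interaction. Genes were drawn independently, without mice that stand apart as A3905 and A3906 do. The hemoglobin changes in WT were smaller, at 0.60 to 0.89, so these shares do not apply to them. Alpha to beta ratios and shares were tested by exact permutation on both sides (Python 3.11.15, numpy 2.4.6), adjusted over 15 tests. Chi-square per gene was at least 10.9 in the 55 pairs of mice of a group, so no 2 of these libraries matched within counting noise. Alternatives used DESeq2 1.42.0, limma 3.58.1 on log2 (TPM + 1) or (TPM + 0.1), other scalings, summed pairs, fewer mice, and a mean of erythroid markers as a covariate. Genes named were the 4 members, Sarm1, other globins, the 3 genes of each list with the largest absolute WT change, the erythroid markers, and the 5 genes most correlated with the members. The members and lists were chosen with earlier results of these data known. Motifs and sequences came from RefSeq promoters and a GRCm38 gene annotation, in which all 4 members were matched. Some genes are not reported here.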

Additional observations from a re-analysis of the deposited data

Results flagged for a closer look

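WT Control mouse A1757 stood far above the other 4 WT Control mice in 3 of the 32 groups of values examined for a distant sample, where chance gives about 1 in 20. The values were 175149 TPM of Hba-a1, 113449 TPM of Hba-a2, and 13.9% of counts in the 4 hemoglobin genes. Hba-a1 and Hba-a2 vary together and make up most of that share, so these are not 3 separate findings. An excess over chance was not shown. It was the 1 Control mouse of the A17 series and had the lowest summed bone markers of its group, 36996 TPM. Without it, the T1D change in WT was 0.81 for Hba-a1 and 0.98 for Hbb-bs on the log2 scale (edgeR adjusted p = 0.0284 and 0.0252).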

How the results depend on the processing

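Of 1086 alternative values, 991 kept their direction and side of the threshold, 17 newly passed, 40 no longer passed, and 38 changed sign. A value of a summed pair counts for both of its genes. The number of genes called for T1D in WT was 334, against 1002 by DESeq2, 88 with no filter (18002 tested), 2205 in A36 to A39 mice, 5154 and 5173 by limma on log2 (TPM + 1) and (TPM + 0.1), and 0 without A3905 and A3906, with 2 groups only, or with the erythroid markers as covariate. With 1 mouse left out it ranged from 0, without A3767 or A3907, to 1264, without A3909, and only without A3674 (290) was it within 1.5 times 334. For KO against WT in T1D it was 13, against 239 by DESeq2, 1538 in A36 to A39 mice, 1166 and 1185 by limma, and 3 to 95 with 1 mouse left out. The median of all genes for T1D in WT was -0.24 and -0.29 in the limma fits, against -0.011. The causes were not tested.

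On the log2 scale, T1D in WT lost the Hba-a1 call with DESeq2 size factors (0.70), total counts (0.61), library sizes without hemoglobin counts (0.70), no filter (0.70), 2 groups only (0.69), limma (0.39 with either pseudocount), the covariate (0.084), and without A3905 and A3906 (0.46), and the summed alpha pair did not pass (0.66). Hbb-bs lost it without these mice (0.60), with 2 groups only (0.90), and with the covariate (0.19). Hba-a2 passed by DESeq2 (0.60) and in A36 to A39 mice (0.82), as did Hbb-bt (0.68 and 0.96), which was -0.056 with the covariate. The summed beta pair, mostly Hbb-bs counts, passed (0.87). KO T1D changes of Hbb-bt were -0.022 with total counts, -0.039 with the covariate, and -0.021 by limma with either pseudocount, and that of the summed beta pair was -0.0079.

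For KO against WT in Control, the summed alpha pair was -0.0034, Hba-a1 was -0.12 with the covariate and -0.036 by limma, Hba-a2 was 0.10 in A36 to A39 mice, and Hbb-bt was -0.014 with the covariate. In T1D, Hba-a1 and Hbb-bs passed by DESeq2 (-0.57 and -0.60) and in A36 to A39 mice (-0.68 and -0.83), and Hbb-bt was 0.0026 with the covariate. The interaction with the covariate was 0.084 for Hba-a2 and 0.017 for Hbb-bt. The alpha to beta interaction passed in A36 to A39 mice (0.43), and the ratio of KO to WT in T1D was -0.021 without A3905 and A3906, an alternative chosen after seeing the data.

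With 1 mouse left out at a time, T1D in WT ranged from 0.60 to 0.81 for Hba-a1, 0.53 to 0.73 for Hba-a2, 0.77 to 0.98 for Hbb-bs, and 0.55 to 0.75 for Hbb-bt. Hba-a1 was called without A1757, A1764, A3909, or A3766, and Hbb-bs was not called without A3767, A3903, A3904, A3907, A1787, A3905, A3906, or A3675. T1D in KO ranged from -0.11 to 0.12 for Hbb-bs and -0.091 to 0.15 for Hbb-bt, and KO against WT in Control from -0.10 to 0.13 for Hba-a1 and -0.18 to 0.096 for Hba-a2. The Hbb-bt share ranged from -0.380 to 1.16 points for T1D in KO, 0.129 to 1.67 for KO against WT in T1D, and 1.40 to 2.94 for the interaction, where the last 2 passed without A3682 only. The alpha to beta ratio ranged from -0.30 to -0.24 for KO against WT in Control and from -0.024 to 0.072 in T1D. In Control it was called without A3682 only, a KO T1D mouse that is in neither Control group. Leaving A3682 out changed the adjustment over the family of tests, not this difference or its unadjusted p. No paired analysis was possible because the groups share no replicate numbers. Depth was no limit for these abundant genes, unlike Sarm1, with 5 to 32 counts per mouse.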

Other observations

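Markers of other marrow and bone cells were measured beside the hemoglobin genes. By edgeR, 0 genes of these lists were called for T1D in WT, against 2.33% of all genes. In lists this short, 0 calls is close to that share and does not show that these cells were unchanged. The median log2 fold change was 0.24 for 8 neutrophil markers, with Retnlg at 0.65 (SE 0.27), S100a9 at 0.32 (SE 0.18), and Elane at 0.30 (SE 0.19). It was -0.091 for 6 B cell markers, with Vpreb1 at -0.64 (SE 0.60) and Vpreb3 at -0.23 (SE 0.54). For 6 markers of macrophages in erythroblastic islands, in which red cells mature, the median was -0.14. Among them Cd163, the hemoglobin scavenger receptor, had 0.36 (SE 0.21), Vcam1 0.35 (SE 0.10), and Adgre1 -0.32 (SE 0.11), of which Vcam1 and Adgre1 had edgeR adjusted p values of 0.0545 and 0.0909.

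For 5 megakaryocyte markers the median was 0.044, with Gp9 at 0.33 (SE 0.16), Gp1bb at 0.067 (SE 0.20), and Ppbp at 0.044 (SE 0.23). Without A3905 and A3906 it was 0.35, that of the B cell markers was 0.37, and that of the neutrophil markers was -0.016. Skeletal muscle markers had a median of 0.17, with Ckm at 0.26 (SE 0.73), Acta1 at 0.21 (SE 0.74), and Mylpf at 0.17 (SE 0.64). Endothelial markers had -0.21, with Kdr at -0.24 (SE 0.15), Cdh5 at -0.22 (SE 0.11), and Emcn at -0.20 (SE 0.11).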
